A study of Rattus norvegicus with 4 samples.

Results

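The leukocyte and inflammation miRNAs examined here are 9 rat hairpins, rno-mir-142, rno-mir-150, rno-mir-223, rno-mir-146a, rno-mir-146b, rno-mir-155, rno-mir-342, rno-mir-132 and rno-mir-212. They were chosen by name: every tag (a distinct read sequence with its count) that the deposited tables assign to one of these hairpins was taken, and counts were summed to the 5p or 3p arm. This gave 15 mature forms from 110 tag entries, of 348 forms, 262 miRNAs and 5198 tag entries on named hairpins in the series. The study compared the small RNA of vesicles from 2 sources, both from Sprague-Dawley rats. Exo-AT are exosomes from minced adipose tissue of animals aged 4 weeks, held for 3 days in spinner culture (75 mL of medium, 100 rpm), so the source was whole tissue and not a purified cell type. Exo-ADSCs are exosomes from adipose stem cells of passage 3, grown without serum for 3 days. The labels give no genetic change and no drug for either group. Each group has 2 libraries, but tag counts were used for 1 Exo-ADSCs library (replicate 2) and both Exo-AT libraries.

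Blood cells carry some of these miRNAs far above other cells. miR-142 is made across the leukocyte lineages, miR-223 is the typical miRNA of granulocytes and monocytes, miR-150 marks mature lymphocytes, and miR-342 is transcribed from an intron of Evl and is abundant in lymphoid cells. miR-146a and miR-155 are induced by NF-kB signalling, and miR-146a dampens that signal by targeting Irak1 and Traf6, with miR-146b as its close relative. miR-132 and miR-212 come from 1 transcript, respond to CREB, and are found in many cells, neurons among them. Vesicle RNA does not tell fewer cells of a type from less RNA per cell, nor either from the sorting of miRNAs into vesicles.

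The mature sequences explain which of these miRNAs can share targets and which can be confused in sequencing. RefSeq (GRCr8) held mature sequences for 8 of the 9 hairpins, all but miR-150. They are written 5′ to 3′ with the seed, bases 2 to 8, in capitals.
miR-146a-5p: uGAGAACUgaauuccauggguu
miR-146b-5p: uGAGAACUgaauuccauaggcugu
miR-132-3p: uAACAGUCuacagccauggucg
miR-212-3p: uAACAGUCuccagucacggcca
miR-142-5p: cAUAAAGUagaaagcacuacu
miR-142-3p: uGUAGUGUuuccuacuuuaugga
miR-155-5p: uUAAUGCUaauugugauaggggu
miR-223-3p: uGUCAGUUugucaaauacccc
miR-342-3p: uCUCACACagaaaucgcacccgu
The miR-146 pair shares the seed GAGAACU, and its members match over the first 17 bases and at 20 of 22 positions, with G18A and U21C separating miR-146a-5p from miR-146b-5p (positions from 1 at the 5′ end of the mature miRNA, miR-146a-5p base first). miR-132-3p and miR-212-3p share the seed AACAGUC and 17 of 22 positions. No other seed was shared among the mature forms of these 8 hairpins, and the seed of miR-150 was not compared. In GRCr8, miR-146a-5p lies at chr10:28350053-28350074 on the minus strand and miR-146b-5p at chr1:255144874-255144897 on the plus strand, so the pair are separate genes. The miR-212-3p and miR-132-3p sequences stand on the plus strand of 1 chromosome, at chr10:60521811-60521832 and chr10:60522091-60522112.

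The libraries differed in depth, and the Exo-AT libraries were not independent of each other. Exo-ADSCs replicate 2 had 97204 counts on named hairpins. Exo-AT replicate 1 had 9134 and replicate 2 had 136024. Levels are given as counts per 1000000 of these totals (CPM). A count of 0 was taken to allow up to 3 counts, or 30.9, 328 and 22.1 CPM in that order. No tag had fewer than 2 reads in any library, so sequences read once are missing, and these floors do not cover them. All 610 named-hairpin tags of Exo-AT replicate 1 were also in Exo-AT replicate 2, and all 610 had at least as many reads there. Of its 188 tags with 2 reads, 188 recurred in Exo-AT replicate 2, whereas the Exo-ADSCs library held 52. Both Exo-AT tables carry the same sample name inside. The origin of this overlap was not tested. Their counts still differed by more than sampling noise (chi-square per degree of freedom 9.47 over 183 forms), which does not show that they come from separate samples. They entered the tests as the 2 libraries that the labels name, so every SD with n = 2 and every p-value rests on this pair. The tests were also run with the counts of replicate 1 taken away from replicate 2. This removes few of its counts and cannot show that the libraries are separate. p-values measure the spread between these samples only, which may be technical.

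**Figure D1:**
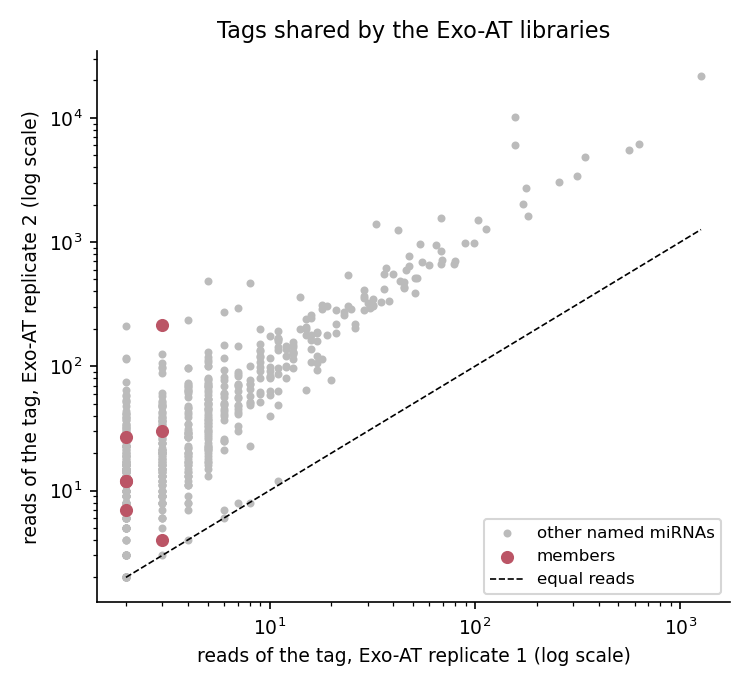
Reads of each named-hairpin tag in Exo-AT replicate 1 (x axis, log scale) and Exo-AT replicate 2 (y axis, log scale), with the 7 member tags in red and equal reads as a dashed line. All 610 tags lie on or above the line, and each of the 7 member tags has 2 or 3 reads in replicate 1.

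Markers of other cell types were also present, at levels that differed between the libraries. The erythroid and platelet miRNAs (miR-451, miR-144 and miR-486) summed to 33527 CPM in Exo-ADSCs with 3 of 3 detected, and to 51018 and 166978 CPM in the Exo-AT libraries, with miR-144 at 0 in replicate 1. Endothelial miR-126a stood at 329 CPM in Exo-ADSCs against 3832 and 5102 CPM. Summed levels of 4 muscle, 5 epithelial and 3 neural miRNAs and of liver miR-122 were 206, 360, 247 and 226 CPM in Exo-ADSCs. They were 1971, 1423, 5474 and 657 CPM in Exo-AT replicate 1 and 1470, 816, 1264 and 463 CPM in replicate 2. miR-133b was at 0 in all 3 libraries, miR-133a, miR-206, miR-200b, miR-200c and miR-429 were at 0 in Exo-AT replicate 1, miR-200c in Exo-ADSCs and miR-429 in Exo-AT replicate 2. Of these, miR-126a-3p, miR-1b-3p, miR-9a-5p and miR-486-5p were called higher in Exo-AT, as were 19.1% of all 183 tested forms. miR-451-5p was not called (log2 fold change -0.01, edgeR adjusted p = 0.993). Nor were the other tested forms of these lists, miR-126a-5p, miR-133a-3p, miR-128-3p, miR-122-5p, miR-141-3p, miR-200a-3p and miR-200b-3p. The part of these cells in the values below was not tested.

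The 9 hairpins were a small share of every library. They gave 328 counts or 0.337% of named counts in Exo-ADSCs (95% Wilson interval 0.303 to 0.376%), 17 counts or 0.186% in Exo-AT replicate 1 (0.116 to 0.298%) and 873 counts or 0.642% in replicate 2 (0.601 to 0.686%). Intervals and floors cover counting error only, since reads carry no molecular identifiers. On this scale the single Exo-ADSCs library lay between the Exo-AT libraries. Over all counts assigned to any hairpin, predicted ones included, the members summed to 459 CPM in Exo-ADSCs and to 1118 and 4822 CPM in Exo-AT, so the order depends on the denominator. Of the 9 hairpins, 5 were detected in Exo-ADSCs, 5 in Exo-AT replicate 1 and 9 in replicate 2. In all 3 libraries the miR-146 pair supplied most of the counts.

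Differences between the groups were tested with edgeR's quasi-likelihood test, adjusted by Benjamini-Hochberg over the 183 forms that passed a filter on low counts and called at an adjusted p of 0.05. Across these 183 forms, 35 were higher in Exo-AT (19.1%) and 35 lower (19.1%), and the median log2 fold change was 0.37. Of the 15 member forms, 8 passed the filter: 1 rose in Exo-AT (miR-150-5p), 2 fell (miR-146a-5p and miR-146b-3p), and 5 were not called. Among the 8, miR-150-5p, miR-155-5p and miR-146b-3p had 0 counts in 1 group and passed the filter through the other group alone. For these forms, passing the filter and the test thus rest on the same counts. The members' median log2 fold change was 0.10, also with forms at 0 in a group set at their bound. With counts of 1 Exo-ADSCs library, the spread in the test comes from the 2 Exo-AT libraries.

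**Figure D2:**
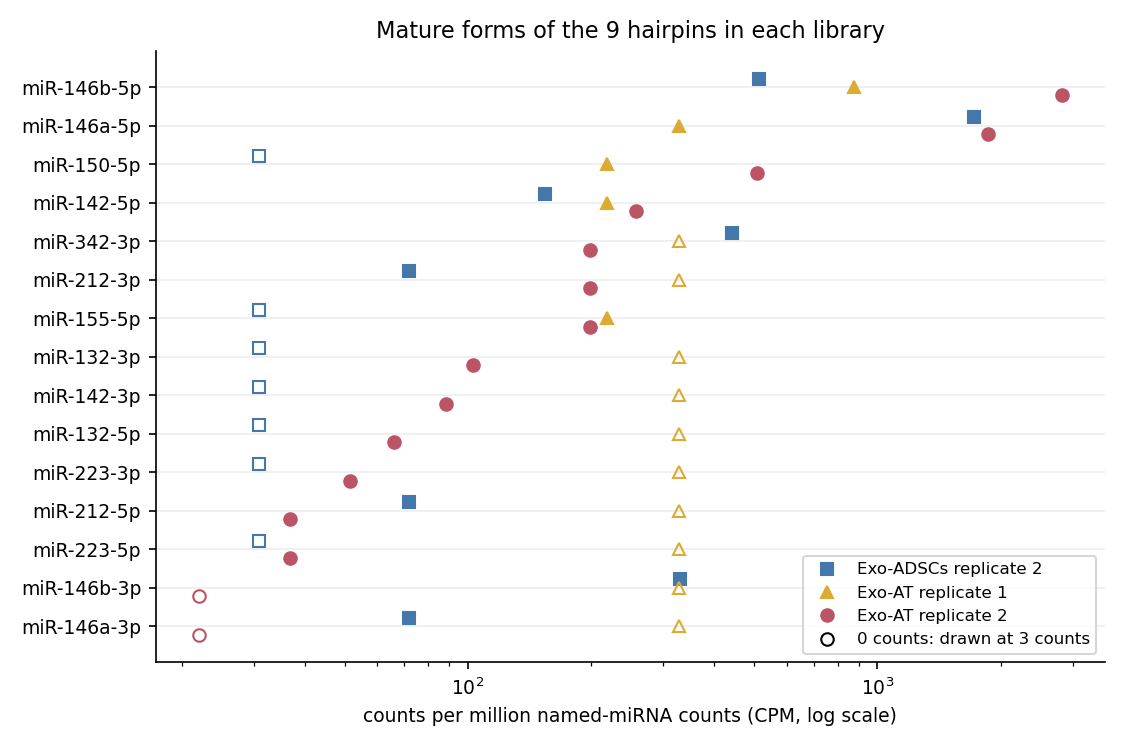
Level of each of the 15 member forms (rows) in CPM on a log scale, with 1 marker per library; open markers stand at 3 counts where a library had 0. Open squares mark 7 forms with 0 counts in Exo-ADSCs, and the open triangles of the shallow Exo-AT replicate 1 all stand to the right of the level in replicate 2.

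miR-150-5p, the lymphocyte miRNA, was the member that rose in Exo-AT. It had 0 counts in Exo-ADSCs, 2 counts (219 CPM) in Exo-AT replicate 1 and 69 counts (507 CPM) in replicate 2. The replicate 2 value was above the 30.9 CPM floor of Exo-ADSCs. The 2 counts of replicate 1 have a 95% Poisson interval of 26.5 to 791 CPM. At its depth 2 reads, the fewest of any tag, already exceed that floor, so the replicate 1 value adds no comparison. With each library scaled by edgeR's TMM factors, the Exo-AT level was 314 ± 220 CPM (SD, n = 2), which is 6.71-fold above the 46.8 CPM of 3 counts in Exo-ADSCs. With the Exo-AT counts pooled, a level of 445 CPM that replicate 2 dominates, it was 9.51-fold above that floor. The edgeR test compared the groups and did not test either fold over the floor. It gave a log2 fold change of 7.76 (SE 2.49, edgeR adjusted p = 0.00714), a size without a measured Exo-ADSCs level behind it. miR-150-5p was still called with replicate 1 taken away from replicate 2. As 67 of the 69 counts stayed there, this does not test the effect of the overlap. It was not called with DESeq2's size factors (adjusted p = 0.0688), with DESeq2 (adjusted p = 0.0585, where 36.8% of the 133 forms given an adjusted p were called) or with limma-voom (adjusted p = 0.0564, where 36.1% of 183 were called).

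The authors' deposited table of miRNAs raised in Exo-AT lists 45 miRNAs, and miR-150-5p is the 1 member among them. The members are 9 of the 262 named miRNAs. The list comes from the same study and holds miRNAs chosen as raised, so it is no separate test. The normalized values of miR-150-5p there were 374 and 125 for the Exo-AT columns and 9 and 0 for the Exo-ADSCs columns, and the authors' deposited table gives a fold of 17.9. That fold is the ratio of group means after 10 is added to each, as in 45 of the table's 45 entries (within 0.01), and the plain ratio of the authors' deposited values is 55.4. The value of 9 is the sole reading of a member in Exo-ADSCs replicate 1. In the authors' deposited table, the column named for Exo-AT replicate 1 kept a fixed ratio, within 5%, to the counts of Exo-AT replicate 2 for 35 of 43 matched miRNAs and to those of Exo-AT replicate 1 for 4. The column named for Exo-AT replicate 2 did so with replicate 1 for 8 and with replicate 2 for 4. The first column thus goes against the numbering of the tag tables, the second could be matched to neither, and the values are given by group.

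miR-155-5p, induced in activated lymphocytes and macrophages, followed the same pattern of counts without passing the test. It had 0 counts in Exo-ADSCs, 2 counts (219 CPM) in Exo-AT replicate 1 and 27 counts (198 CPM) in replicate 2. The 2 counts of replicate 1 have a 95% Poisson interval of 26.5 to 791 CPM, too wide to compare the Exo-AT libraries. On the TMM scale the Exo-AT mean of 171 CPM was 3.65-fold above the Exo-ADSCs floor, and the pooled Exo-AT level of 182 CPM 3.88-fold. The test between the groups gave a log2 fold change of 6.73 (SE 3.78, edgeR adjusted p = 0.157). With tags of 20 to 25 nt alone, the edgeR adjusted p was 0.0242, and 23.1% of the 130 tested forms were called higher. All miR-155-5p tags were 21 to 24 nt long, so its own counts were unchanged there and only those of other forms differed. Every miR-155-5p tag began at the first base of the mature sequence. In Exo-AT replicate 2, T12C was in 13 of 27 counts (48.1%, 95% Wilson interval 30.7 to 66.0%), and the other 14 matched the rat hairpin. The 2 counts of replicate 1 matched it too, a number that sets no useful limit on the share changed there. As background, human miR-155-5p is known to carry this base, and whether reads of another species are among the tags was not tested.

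The myeloid miRNA miR-223 was seen in Exo-AT replicate 2 alone. It had 7 counts of miR-223-3p (51.5 CPM) and 5 counts of miR-223-5p (36.8 CPM) there, and 0 counts of either arm in the other libraries. As both arms together it stood at 88.2 CPM (95% Poisson interval 45.6 to 154 CPM). The upper limit of Exo-ADSCs was 37.9 CPM, which does not cover tags read once. The level lay below what Exo-AT replicate 1 could detect. Neither arm passed the filter, and neither was called when all forms were tested without it.

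miR-142, the pan-leukocyte miRNA, was present in all 3 libraries, stem cell exosomes included. miR-142-5p had 15 counts (154 CPM) in Exo-ADSCs, 2 counts (219 CPM) in Exo-AT replicate 1 and 35 counts (257 CPM) in replicate 2. Its log2 fold change was -0.12 (SE 1.22, edgeR adjusted p = 0.952), an interval wide enough for a difference in either direction. miR-142-3p appeared with 12 counts (88.2 CPM) in Exo-AT replicate 2 and 0 elsewhere. It did not pass the filter and was not called without it. The 5p arm was thus the more counted arm of this hairpin in each library.

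The tags of miR-142-5p differed in start and length between the libraries. In Exo-AT replicate 2, 19 of 35 counts (54.3%, 95% Wilson interval 38.2 to 69.5%) began 2 nt before the annotated start and 14 of 35 (40%) at it. The shift moves the seed, so the leading tag of 17 counts and the annotated form of 12 counts are shown with bases 2 to 8 in capitals, as DNA.
miR-142-5p, 2 nt upstream: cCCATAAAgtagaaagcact
miR-142-5p, annotated start: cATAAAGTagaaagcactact
In Exo-ADSCs, 6 of 15 counts began at the annotated start, but these reads were 15 nt long, and the mean tag length was 18.2 nt against 20.6 nt in Exo-AT replicate 2. Short tags were 60% of the Exo-ADSCs counts (under 20 nt, 95% Wilson interval 35.7 to 80.2%), and none of the 37 counts in the Exo-AT libraries was under 20 nt, which allows a share of up to 8.11%. The 60% is near the 55.2% of tags under 20 nt among the other named miRNAs of the Exo-ADSCs library.

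miR-342-3p was the lymphoid-linked member with more counts in the stem cell exosomes. It had 43 counts (442 CPM) in Exo-ADSCs, 0 in Exo-AT replicate 1 and 27 counts (198 CPM) in replicate 2. On this scale the Exo-AT replicate 2 level lay below the Exo-ADSCs level, and the floor of 328 CPM leaves replicate 1 uninformative below that. Over all assigned counts the order was the reverse, with 60.1 CPM in Exo-ADSCs and 149 CPM in Exo-AT replicate 2. The log2 fold change was -2.25 (SE 0.97, edgeR adjusted p = 0.0542). It was called lower with tags assigned to 1 hairpin name alone, and with tags on the annotated mature sequence alone, where 34 of 158 forms were lower (21.5%). All 43 Exo-ADSCs counts were 22 to 24 nt long and began at the mature start, and 5p reads of this hairpin had 0 counts in every library.

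Of the inflammation-induced members, the miR-146 pair was the most abundant, and its balance differed between the libraries. miR-146a-5p had 167 counts (1718 CPM) in Exo-ADSCs, 3 counts (328 CPM) in Exo-AT replicate 1 and 253 counts (1860 CPM) in replicate 2. miR-146b-5p had 50 counts (514 CPM), 8 counts (876 CPM) and 383 counts (2816 CPM) in the same order. Exo-ADSCs exosomes carried more miR-146a-5p than miR-146b-5p, and both Exo-AT libraries the reverse. Among tags assigned to 1 of the pair alone, miR-146b-5p made up 42 of 201 counts in Exo-ADSCs (20.9%, 95% Wilson interval 15.8 to 27.0%). Its share was 8 of 11 in Exo-AT replicate 1 (72.7%, 43.4 to 90.3%) and 380 of 630 in Exo-AT replicate 2 (60.3%, 56.4 to 64.1%). The Exo-AT intervals do not overlap that of Exo-ADSCs. With replicate 1 taken away from replicate 2 the share was 372 of 619 counts (60.1%, 56.2 to 63.9%). This removes few of the 630 counts and so does not test the effect of the overlap. Tags that fit both hairpins held 16 counts in the stem cell library and 6 in Exo-AT replicate 2. A share within 1 library does not depend on scaling, but it compares 3 libraries, not conditions with replicates.

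The separate fold changes of the pair did depend on scaling. On TMM-scaled levels, miR-146a-5p was at 2603 CPM in Exo-ADSCs and 979 ± 1049 CPM in Exo-AT (SD, n = 2; 237 and 1721 CPM), and its log2 fold change was -1.19 (SE 0.49, edgeR adjusted p = 0.0407). On CPM of named totals, the Exo-ADSCs value of 1718 lay between the Exo-AT values, so the groups overlapped. The call was lost in 8 of 11 alternatives with a test, with adjusted p from 0.00750 to 0.530, and when replicate 1 was taken away from replicate 2 it was 0.0557. miR-146b-5p was at 779 CPM in Exo-ADSCs and 1619 ± 1395 CPM in Exo-AT (632 and 2605 CPM), with a log2 fold change of 1.18 (SE 0.56, edgeR adjusted p = 0.0868). Left with Exo-AT replicate 2 as the sole tissue library, the log2 fold changes were -0.53 for miR-146a-5p and 1.81 for miR-146b-5p, and with Exo-AT replicate 1 alone -3.41 and -0.28. In all 14 fits the change of miR-146b-5p exceeded that of miR-146a-5p, by 2.34 to 3.59 on the log2 scale. This gap carries the same counts as the share above and is not separate evidence.

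**Figure D3:**
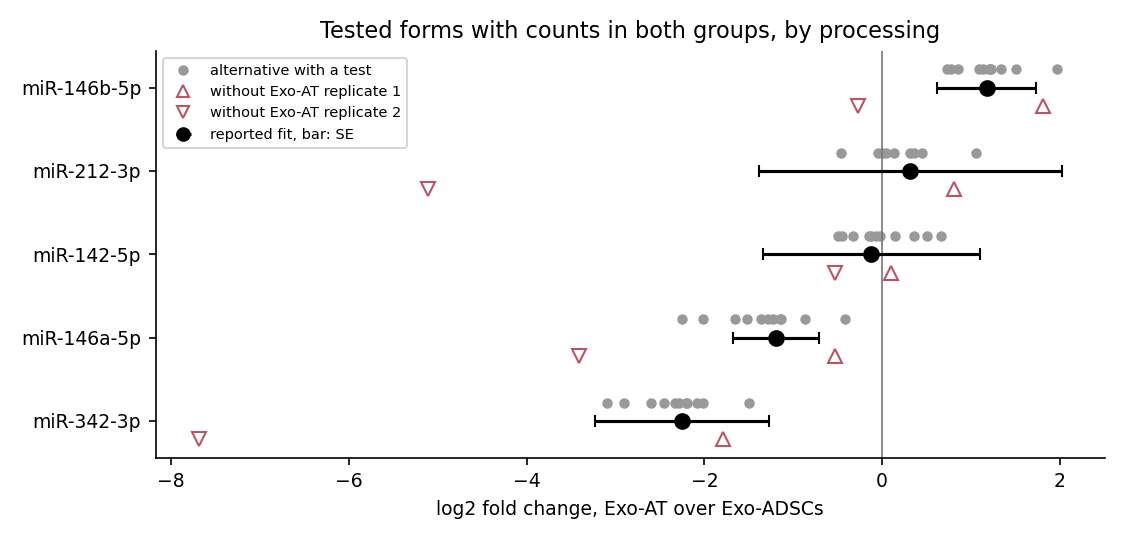
Log2 fold change of Exo-AT over Exo-ADSCs for the 5 tested member forms with counts in both groups. Black points with SE bars are the reported values, grey points the alternatives with a test and open triangles the values with 1 Exo-AT library left out; miR-146b-5p lies above miR-146a-5p throughout, and dropping Exo-AT replicate 2 moves miR-212-3p and miR-342-3p furthest.

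The star arms of the pair were counted in Exo-ADSCs alone, but their tags were not the annotated miRNAs. miR-146b-3p had 32 counts (329 CPM) in Exo-ADSCs and 0 in both Exo-AT libraries, at least 26.5-fold lower in Exo-AT on the TMM scale. The test between the groups gave a log2 fold change of -8.22 (SE 2.21, edgeR adjusted p = 0.00119). All 32 counts were 1 tag of 15 nt. On the 88-nt hairpin it covers positions 69 to 83, in capitals here, whereas the annotated miR-146b-3p runs from 55 to 75.
miR-146b hairpin: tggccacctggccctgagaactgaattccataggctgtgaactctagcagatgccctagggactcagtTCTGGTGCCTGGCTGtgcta
miR-146b-3p tag: tctggtTcctggctg
The tag differs from the hairpin by G21T (counted from the annotated start of miR-146b-3p, capital in the tag), so 32 of 32 counts carry a mismatch. With tags on the annotated mature sequence alone, miR-146b-3p had no count. miR-146a-3p had 7 counts in Exo-ADSCs, all in a 16-nt tag that begins 33 nt past the annotated start and overlaps it by 0 nt. The fall of miR-146b-3p is therefore a difference in 1 short read sequence, not in the annotated star miRNA.

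**Figure D4:**
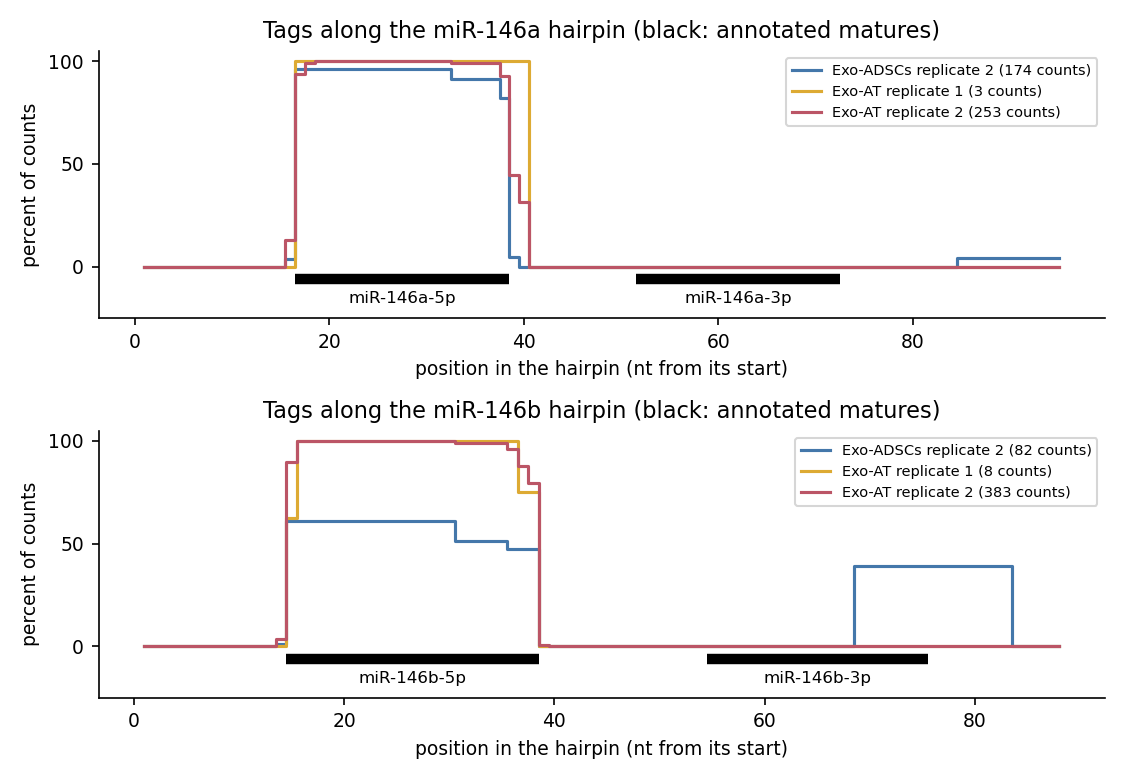
Percent of the counts on the miR-146a hairpin (top) and the miR-146b hairpin (bottom) that cover each position, by library, with the annotated matures as black bars. Exo-AT counts lie on the 5p arm, and the Exo-ADSCs library adds tags near the 3′ end of both hairpins that start 33 and 14 nt after the annotated 3p start.

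The 5p tags of the pair also differed at their ends. In Exo-AT replicate 2, 95 of 253 miR-146a-5p counts (37.5%, 95% Wilson interval 31.8 to 43.7%) carried A23G, a G 1 base past the annotated 22-nt end where the hairpin has A. This base lies outside the seed and outside the annotated miRNA. As background, the human hairpin is known to carry G there, and as with miR-155-5p a part of other-species reads was not tested. Of the 113 counts that reach position 23 in Exo-AT replicate 2, A23G was in 84.1% (76.2 to 89.7%). In Exo-ADSCs, 8 of 167 counts reach that position and 0 of them carried A23G, which allows a share of up to 37.5% of such counts, and 120 counts were the exact 22-nt mature sequence. Changes in the last 3 bases of a tag were in 43.1% of miR-146a-5p counts in Exo-AT replicate 2 (37.1 to 49.2%) and in 13.6% of all other named counts of that library. In Exo-ADSCs the same shares were 2.40% (0.935 to 5.996%) and 5.94%, so 3′ end changes were more common in Exo-AT replicate 2 for other miRNAs too. In Exo-AT replicate 2, C0A, a change at the base before the mature start, was in 30 of 253 miR-146a-5p counts (11.9%) and 10 of 383 miR-146b-5p counts (2.61%). G2T, a change inside the seed, was in 8 of 253 miR-146a-5p counts there (3.16%, 1.61 to 6.11%). miR-146b-5p, whose annotated form is 24 nt, had G2T in 40 of 383 counts of Exo-AT replicate 2 (10.4%, 7.76 to 13.9%), shown with the changed base in capitals.
miR-146b-5p, G2T: tTagaactgaattccataggctgt
G2T was also found in other miRNAs. Among counts that began at a mature start with G at position 2, it was in 8.99% for the pair (6.85 to 11.7%) and in 6.50% for other named miRNAs of Exo-AT replicate 2, in 4.90% for others of Exo-AT replicate 1 and in 0.435% for others of Exo-ADSCs. In Exo-ADSCs the pair had G2T in 2 of 201 such counts. Extra bases within the first 3 positions were in 13 of 328 member counts of Exo-ADSCs (3.96%, 2.33 to 6.66%), among them 4 counts of miR-146a-5p and 5 of miR-146b-5p with 3 bases before the mature start, and in 0.991% of its other named counts. Whether these changes arose in the cells or in library preparation and sequencing was not tested.

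miR-132 and miR-212, processed from 1 transcript, were not counted together in every library. miR-132-3p had 14 counts (103 CPM) and miR-132-5p 9 counts (66.2 CPM) in Exo-AT replicate 2, and both had 0 in the other libraries. miR-212-3p had 7 counts (72.0 CPM) in Exo-ADSCs, 0 in Exo-AT replicate 1 and 27 counts (198 CPM) in replicate 2. Exo-ADSCs thus held miR-212 without a count of miR-132, and Exo-AT replicate 2 held both. The log2 fold change of miR-212-3p was 0.32 (SE 1.71, edgeR adjusted p = 0.908), and miR-132 did not pass the filter. miR-212-5p had 7 counts in the stem cell library and 5 in Exo-AT replicate 2, all in 16-nt tags.

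Both hairpins showed the same end change in Exo-AT replicate 2. Here C23T was in 12 of 14 miR-132-3p counts (85.7%, 95% Wilson interval 60.1 to 96.0%) and C24T in 20 of 27 miR-212-3p counts (74.1%, 55.3 to 86.8%), in each case a T past the annotated 22-nt end. For miR-212-3p the tag starts 1 nt after the annotated start and is printed with the changed base in capitals.
miR-212-3p, C24T: aacagtctccagtcacggccacT
A further 5 miR-212-3p counts of that library were a 15-nt tag that starts 29 nt past the mature start. In Exo-ADSCs the 7 miR-212-3p counts were 21 or 22 nt long, and 0 of them reach position 24, so the end change could not be seen there. miR-150-5p also had a T at its last base where the hairpin has C, in 12 of 69 counts of Exo-AT replicate 2 (17.4%, 10.2 to 27.98%), and miR-223-3p had A22T in 2 of 7.

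Pooled over the hairpins, member tags were on average longer than those of other miRNAs in each library. Their mean length was 20.97 nt in Exo-ADSCs, 22.8 nt in Exo-AT replicate 1 and 22.8 nt in Exo-AT replicate 2, against 19.8, 20.8 and 21.2 nt for the other named miRNAs. In Exo-ADSCs, 75.0% of member counts were 21 to 24 nt (95% Wilson interval 70.0 to 79.4%) and 21.6% were under 20 nt (17.5 to 26.4%), whereas 55.2% of the other named counts were under 20 nt. The Exo-ADSCs mean is carried by miR-146a-5p, miR-146b-5p and miR-342-3p, whereas its tags of miR-142-5p, miR-146a-3p, miR-146b-3p and miR-212-5p had means of 18.2, 16, 15 and 16 nt. In the Exo-AT libraries, 0 of 17 (up to 17.6%) and 1.83% (1.13 to 2.96%) of member counts were under 20 nt, against 19.2% and 15.6% of the others. Counts with any mismatch or indel were 21.95%, 17.6% and 33.1% of member counts, beside 23.1%, 19.6% and 22.8% of the others. The share of short tags was thus lower for the members in Exo-ADSCs and in Exo-AT replicate 2, and the share altered was higher in Exo-AT replicate 2, where miR-146a-5p had 152 of 253 counts altered (60.1%). These shares are over reads within single libraries and have no test over samples.

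**Figure D5:**
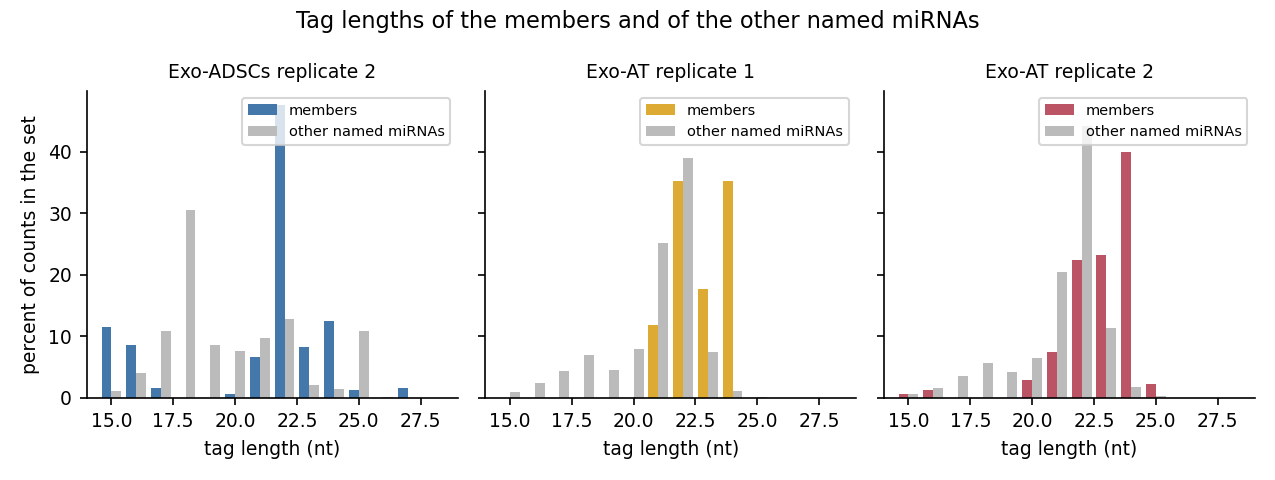
Percent of counts (y axis) at each tag length in nt (x axis) for the member hairpins (coloured) and the other named miRNAs (grey), 1 panel per library. In Exo-ADSCs 75.0% of member counts lie at 21 to 24 nt while 55.2% of the other counts are under 20 nt; in Exo-AT replicate 2 the members peak at 24 nt, the annotated length of miR-146b-5p.

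Among the other miRNAs linked to immune regulation, a list of 24 names that includes the miR-17/92 cluster, miR-21, miR-24, miR-29, miR-125, miR-181 miR-221 and miR-222, all 24 had counts and 22 of 35 forms passed the filter. Of these 22, 5 were higher in Exo-AT, 3 were lower and 14 were not called, beside 19.1% higher and 19.1% lower over all 183 forms. Their median log2 fold change was 0.12 beside 0.37 for all forms. The 2 most abundant higher forms were miR-181a-5p, a regulator of lymphocyte development, with a log2 fold change of 0.88 (SE 0.32, edgeR adjusted p = 0.0208) and miR-125b-5p, with 2.82 (SE 0.52, adjusted p = 1.7e-06). The 2 most abundant lower forms were miR-21-5p, which rises in inflamed and fibrotic tissue, with -0.97 (SE 0.27, edgeR adjusted p = 0.00168) and miR-24-3p, with -5.13 (SE 0.36, adjusted p = 5.19e-30).

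The tested miRNAs whose levels ran most like miR-146b-5p over the 3 libraries were miR-486-5p, miR-222-3p and miR-184-3p, with distances of 0.11, 0.36 and 0.39 on centred log2 TMM-scaled CPM. miR-486-5p, an erythroid miRNA, stood at 49869, 36676 and 153191 CPM on the TMM scale in Exo-ADSCs, Exo-AT replicate 1 and Exo-AT replicate 2, beside 779, 632 and 2605 CPM for miR-146b-5p. On this scale both were highest in Exo-AT replicate 2 and lowest in Exo-AT replicate 1. On CPM of named totals miR-146b-5p was lowest in Exo-ADSCs instead, with 514 CPM against 876 and 2816 CPM in the Exo-AT libraries. miR-184-3p was at 0 in the stem cell library and in Exo-AT replicate 1, so its distance is set by the prior count of 2. With 3 libraries this is a description of these samples.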

How the data were processed

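The deposited tag tables give, per the file headers, whole-number counts of each distinct read sequence and the hairpin it was assigned to, made by the authors with Novoalign 2.07.11 and the rn6 assembly per the submitters' processing notes. For Exo-ADSCs replicate 1 the table summarises alignments and has no tag counts, so it was not used. The authors' deposited table gives normalized reads (a score, since the scale is not given in the sources used here) and a fold, the ratio of the group means after 10 is added to each.

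Hairpin copies were summed, and a tag went to the 5p or 3p arm by its midpoint. edgeR 4.0.16 (R 4.3.3; quasi-likelihood, two-sided, TMM factors 0.664, 1.39 and 1.08) was run on forms kept by filterByExpr (minimum count 10, total 15) in 1 Exo-ADSCs and 2 Exo-AT libraries, with Benjamini-Hochberg adjustment at 0.05. SE is the log2 fold change over the root of F. A group at 0 was set at 3 counts over its libraries for a bound, which does not cover tags read once. DESeq2 1.42.0 and limma 3.58.1 served as alternatives, beside other scalings, filters, tag selections, arm rules and denominators. Every member form with a count is named, with the 3 tested miRNAs nearest the most abundant one and, of the wider list, the 2 most abundant called forms in each direction. The members and lists were chosen with earlier results of these data known. The test was tested on simulated counts drawn independently for each library, which does not cover the overlap of the Exo-AT libraries.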

Additional observations from a re-analysis of the deposited data

How the results depend on the processing

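Of 8 tested member forms, 3 were called, beside 70 of all 183 forms (38.3%), so this count does not set the members apart. DESeq2's size factors called 1 member form and DESeq2 called 1, miR-146b-3p in both, beside 53 and 49 of all forms. The other 9 alternatives with a test called 2 to 4 member forms, of 6 to 15 tested. They called 15.8 to 45.4% of all forms tested. These 9 include 3 chosen after seeing the data (tags on the annotated mature, tags without mismatch or indel, Exo-AT replicate 2 minus replicate 1). miR-142-5p, which was not called, turned positive with total-count scaling (0.67), tags of 20 to 25 nt (0.36), tags near the most common 5′ end (0.15) and tags without mismatch (0.51), and miR-212-3p turned negative with DESeq2's size factors (-0.043) and near the common 5′ end (-0.0022), and stood at -0.46 with DESeq2, which gave it no adjusted p. miR-146b-5p was called with total-count scaling (log2 fold change 1.97, adjusted p = 0.00351) and limma-voom (1.5). The median log2 fold change of all forms was 0.37 with TMM, 0.08 with DESeq2's size factors and 1.21 with total counts, and the share of tested forms called higher was 19.1%, 12.6% and 25.1%, with 19.1%, 16.4% and 10.4% lower. All 348 forms were tested without the filter, with 55 calls against 70. Leaving out 1 Exo-AT library gives a fold with no test: miR-212-3p ranged from -5.11 to 0.81 and miR-342-3p from -7.69 to -1.79. With all assigned counts as denominator, the members summed to 459 CPM in Exo-ADSCs, 1118 in Exo-AT replicate 1 and 4822 in replicate 2, in place of 3374, 1861 and 6418, so Exo-ADSCs then lay below both. Arm shares did not move with the arm rule. No paired analysis was possible because tag counts were used for 1 Exo-ADSCs library. Depth limits Exo-AT replicate 1 most, where a count of 0 was taken to allow up to 328 CPM, tags read once aside.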
